A study of Homo sapiens with 4 samples.

Results

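Receptor tyrosine kinases outside the EGFR family were described here across HCC1937 cells with and without restored BRCA1, under solvent or a BET inhibitor. The set was 10 named genes of the 60487 in each library: the TAM receptors AXL, TYRO3 and MERTK with their ligand GAS6, the HGF receptor MET and its relative MST1R, the ephrin receptor EPHA2, the growth factor receptors FGFR2 and IGF1R, and the collagen receptor DDR1. They were chosen by name as receptors linked to escape from BET or kinase inhibitors, with no threshold on their values. Earlier results of these data were known when they were chosen. All 10 had a row in each of the 4 libraries. Of them, 9 reached 1 FPKM (fragments scaled to transcript length and to the fragments mapped in the library) in at least 1 library and entered the fit of 18295 genes, while MERTK was listed at 0 in each library and did not.

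HCC1937 is an established human breast cancer line, and the cells came as an isogenic pair. The vector line is labelled BRCA1 -/-, and the wtBRCA1 line is labelled wild type. Each line received DMSO, the solvent, or OTX-015 (birabresib), which blocks the bromodomains of the BET proteins, and poly(A)-selected RNA was sequenced from 1 library per group, 4 in all. The dose, the time of treatment and whether either line is a single clone are not given in the sources used here. No group had a replicate, so differences between 2 libraries have no test and are given as log2 differences of FPKM + 1, which understate changes of low genes. Over all 4 libraries limma was fitted with line and treatment as terms, with Benjamini-Hochberg adjustment over all 18295 genes. What is left over in that fit is how far the lines' responses differ, and limma weighs each gene's own mismatch together with that of other genes at similar levels. A gene's p is thus not a measure of its own consistency alone, and it does not measure the spread between cultures. The responses of COL6A1 differed by 0.013 log2 between the lines and its SE was 0.32. Those of COL6A2 differed by 2.35 log2, its SE was 0.50, and it still passed for the line. Values of a pair of libraries are given in the order DMSO, then OTX-015. The words rose and fell refer to an adjusted p under 0.05 in that fit.

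Receptor tyrosine kinases span the membrane, are switched on when a ligand binds outside, and phosphorylate each other and adaptor proteins inside. AXL, TYRO3 and MERTK bind GAS6, a vitamin K-dependent protein that also bridges to phosphatidylserine on cell surfaces. AXL and MET are known in breast cancer for marking invasive cells and for carrying growth signals when another kinase is blocked.

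BRCA1 itself stood at 37.2 and 40.8 FPKM in the vector pair (DMSO, then OTX-015) and was higher in both wtBRCA1 libraries, at 171 and 2712. Within the wtBRCA1 line BRCA1 was thus far higher under OTX-015 than under DMSO. The part of this BRCA1 difference in the OTX-015 responses of that line was not tested. Summed FPKM ran from 909314 to 1496107 per library, the 10 highest genes held 15.3% to 17.4% of it under DMSO and 33.8% to 39.2% under OTX-015, and the depth is unknown. All 5 epithelial markers were present, with EPCAM, an epithelial adhesion protein, between 377 and 443 FPKM. KRT5, a basal keratin, was at 29.4 and 23.2 FPKM in the vector pair, against 980.3 and 573 in the wtBRCA1 pair, and KRT8 and KRT18, luminal keratins, were lower in both wtBRCA1 libraries. The leukocyte list summed to 16.2 and 24.8 FPKM in the vector libraries and to 32.5 and 50.2 in the wtBRCA1 libraries, nearly all from CD68 and CD14, with 2 of 5 markers at 1 FPKM or more, the pan-leukocyte PTPRC at most 0.225 and the T cell gene CD3E at 0. The fibroblast list summed to 2.11 and 4.01 against 9.78 and 8.39 FPKM, nearly all COL1A1, with 1 of 6 markers at 1 FPKM or more and PDGFRB and DCN at 0. Of 4 endothelial markers 2 reached 1 FPKM (sums of 0.670 to 7.03), with VWF and KDR at 0. The part of these markers in the differences between the lines was not tested.

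AXL transcript can begin at either of a pair of starts in RefSeq, and the deposited values give 1 number per gene that does not separate them. The windows of the GRCh38.p14 promoter table run from 250 bases before to 50 after each start. They are shown because AXL was the only gene of the set with an adjusted p under 0.05 for the line. Both lie on the plus strand, the outer at chr19:41218973-41219272 and the inner at chr19:41226505-41226804. Capitals mark matches on either strand to the GC box GGGCGG and to the TEAD core CATTCC.
AXL outer start: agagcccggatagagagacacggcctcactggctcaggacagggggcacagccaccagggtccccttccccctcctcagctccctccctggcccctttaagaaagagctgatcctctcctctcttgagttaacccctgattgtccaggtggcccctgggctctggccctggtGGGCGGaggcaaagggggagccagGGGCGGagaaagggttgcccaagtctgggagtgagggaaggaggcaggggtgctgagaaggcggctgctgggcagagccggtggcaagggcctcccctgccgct
AXL inner start: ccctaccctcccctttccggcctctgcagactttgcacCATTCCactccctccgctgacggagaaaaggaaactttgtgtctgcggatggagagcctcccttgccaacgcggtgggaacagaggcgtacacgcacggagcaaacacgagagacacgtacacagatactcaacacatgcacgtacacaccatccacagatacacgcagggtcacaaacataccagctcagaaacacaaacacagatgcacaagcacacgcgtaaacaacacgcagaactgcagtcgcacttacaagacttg
The outer window held 2 GC boxes and the inner none, while 45.0% of the 35116 promoter windows in the table held at least 1. The TEAD core was found 1 time in the inner window and not in the outer, against 14.03% of all windows. Neither window held the AP-1 motif TGANTCA (7.71% of all windows) or the E-box CACGTG (7.26%). The outer window was 66.0% G and C with 7 CpG pairs, and the inner 53.7% with 17. Such a match is a description of letters and not a bound site, and the motifs did not overlap one another. All 10 genes were in the table, with 23 windows between them.

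AXL (ENSG00000167601, chromosome 19, 41219203 to 41261766, plus strand, GENCODE 29 on hg38) fell steeply in the wtBRCA1 line. The vector pair held 70.7 FPKM with DMSO and 50.3 with OTX-015, and the wtBRCA1 pair held 5.01 and 1.70. Both vector libraries were high and both wtBRCA1 libraries were low. With DMSO the vector library stood 14.1 times above the wtBRCA1 library, and with OTX-015 it stood 29.6 times above. The fitted drop in wtBRCA1 cells was -3.91 ± 0.36 log2 (SE; limma adjusted p = 0.000334), in the same direction in both treatments. AXL was thus the 1 gene of the 9 tested that passed for the line, all genes having passed in 8.29% of cases, 4.88% higher and 3.41% lower. At an unadjusted limma p under 0.05 for the line there were 2, AXL and DDR1, against 23.5% of all genes. Only 68 of the 18295 genes had a lower log2 difference under DMSO, and 35 under OTX-015. The call was lost when the treatment term was left out (adjusted p = 0.062), and it was kept in the other 9 alternative fits, with adjusted p up to 0.0283. With 2 lines in all, BRCA1 cannot be told apart from other differences between them, and in bulk RNA fewer cells with a transcript cannot be told apart from less of it per cell.

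Under OTX-015, AXL was lower than under DMSO in both lines, at 0.712 of the DMSO value in vector cells and 0.339 in wtBRCA1 cells. The common effect was -0.82 ± 0.36 log2 and did not pass (limma adjusted p = 0.210). Among genes with at least 1 FPKM in the same library, AXL stood at percentile 85.3 in vector cells under DMSO and at 9.51 in wtBRCA1 cells under OTX-015. Its antisense neighbour CTD-2195B23.3 (chromosome 19, 41221426 to 41222051, minus strand), inside the AXL gene, was at 8.29 and 14.7 FPKM in the vector pair, against 1.06 and 0 in the wtBRCA1 pair. Like AXL it was lower in both wtBRCA1 libraries, but in vector cells it was higher under OTX-015 where AXL was lower. The library kit kept strand, yet whether counting used it is not given, so reads of the pair cannot be told apart with certainty.

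TYRO3 (ENSG00000092445, chromosome 15, 41557675 to 41583586), the TAM receptor best known from the nervous system, was at 20.6 and 12.4 FPKM in the vector pair, against 13.9 and 9.40 in the wtBRCA1 pair. It was lower under OTX-015 in both lines, with a difference of -0.60 ± 0.34 log2 that did not pass (limma adjusted p = 0.341). The line effect was -0.45 log2 and did not pass either (limma adjusted p = 0.479). The order of the TAM receptors differed between the lines: AXL stood 3.43 and 4.06 times above TYRO3 in vector cells under DMSO and OTX-015, while TYRO3 stood 2.78 and 5.53 times above AXL in wtBRCA1 cells. FPKM is scaled to transcript length, so such levels can be set side by side. By level, with DMSO only EPHA2 was above AXL in vector cells, and in wtBRCA1 cells under OTX-015 only IGF1R and MERTK were lower. With 1 library per group, whether neighbours in such an order differ beyond their spread cannot be said.

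GAS6 (ENSG00000183087, chromosome 13, 113820549 to 113864067) was at 7.09 and 6.37 FPKM in the vector pair, against 4.64 and 3.34 in the wtBRCA1 pair. The wtBRCA1 libraries were the lower pair, by -0.64 ± 0.38 log2, and the difference did not pass (limma adjusted p = 0.348). The antisense gene GAS6-AS1 overlaps it at 0.848 to 1.48 FPKM. MERTK (ENSG00000153208, chromosome 2, 111898479 to 112029561), which serves phagocytes in clearing dead cells, was listed at 0 in all 4 libraries, while the pseudogene AC104651.2 inside it was listed at 0.698 to 3.26 FPKM. PROS1, the other TAM ligand, was at 0.443 FPKM in the vector DMSO library and at 0 in the other 3. GGCX, the carboxylase that GAS6 needs, was between 53.0 and 85.0 FPKM, and VKORC1, which recycles vitamin K, between 32.5 and 46.1. ADAM10, a protease known to shed AXL, was at 55.4 and 79.1 FPKM in the vector pair, against 58.4 and 112 in the wtBRCA1 pair (0.72 ± 0.30 log2 for OTX-015, limma adjusted p = 0.181). Of the 6 genes of TAM ligands and processing, 5 were tested and none passed limma for OTX-015 or for the line, with 1 and 0 at an unadjusted p under 0.05, which 22.8% and 23.5% of all genes reached.

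**Figure D1:**
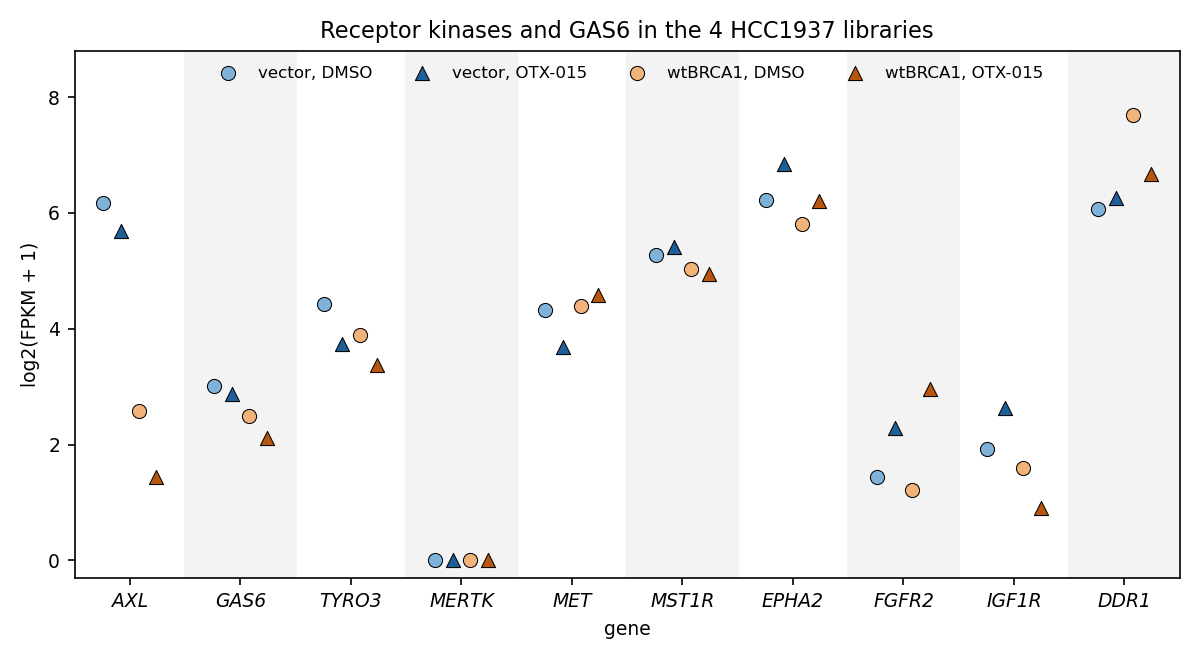
Level of each of the 10 genes in each of the 4 libraries, as log2(FPKM + 1) on the vertical axis, 1 point per library with no replicate and no error bar. AXL drops from 70.7 and 50.3 FPKM in vector cells to 5.01 and 1.70 in wtBRCA1 cells, while MST1R stays between 29.9 and 41.7 and MERTK lies at 0.

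MET (ENSG00000105976, chromosome 7, 116672390 to 116798386), the receptor of hepatocyte growth factor, was not lower in the wtBRCA1 libraries, unlike AXL. The vector pair held 19.1 and 11.8 FPKM, and the wtBRCA1 pair 20.0 and 22.9. The vector OTX-015 library was the low one, and the other 3 lay close together. Neither the line effect of 0.48 ± 0.36 log2 nor the OTX-015 effect of -0.23 ± 0.36 passed (limma adjusted p = 0.473 and 0.738). The ligand HGF was listed at 0 in all 4 libraries.

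MST1R (ENSG00000164078, chromosome 3, 49887002 to 49903873), also called RON, is the receptor of macrophage-stimulating protein. It varied least of the 9 expressed genes, with 37.9 and 41.7 FPKM in the vector pair, against 31.8 and 29.9 in the wtBRCA1 pair, a range of 0.47 log2. Its line effect of -0.36 ± 0.32 log2 and its OTX-015 effect of 0.02 ± 0.32 did not pass (limma adjusted p = 0.548 and 0.973). MST1R exceeded MET in every library, by 1.31 to 3.53 times. The antisense gene CTD-2330K9.2 (chromosome 3, 49899302 to 49903757, plus strand) lies within MST1R and was listed above it, at 50.5 and 90.1 FPKM in the vector pair, against 50.9 and 45.1 in the wtBRCA1 pair. Reads could have been divided between the pair, which limits the MST1R values.

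**Figure D2:**
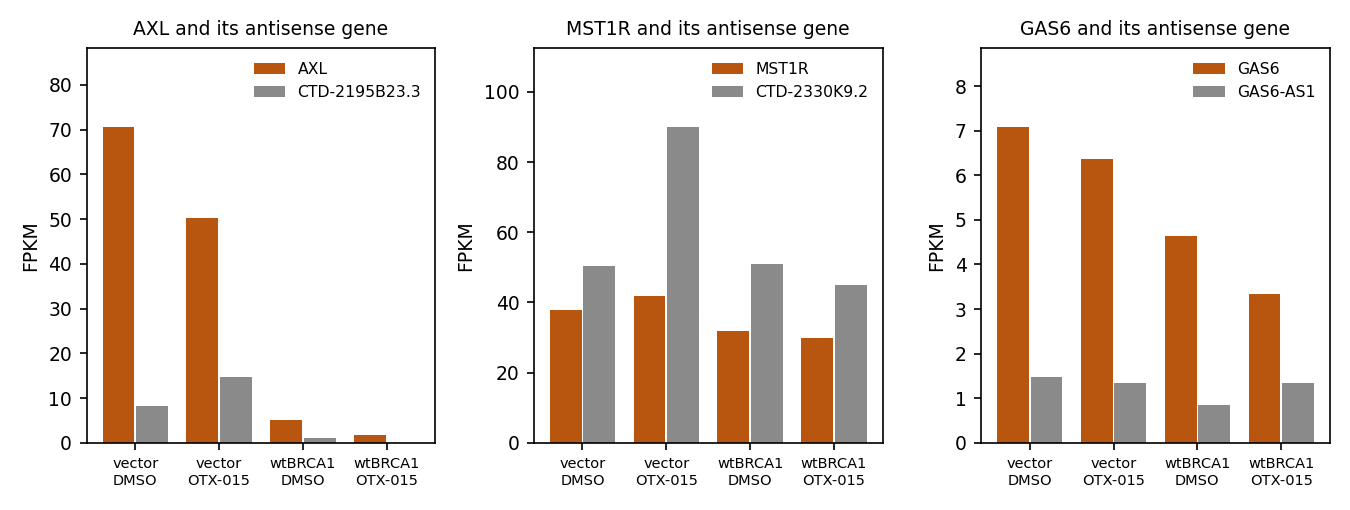
FPKM of AXL, MST1R and GAS6 (orange bars) beside an antisense gene that overlaps each (grey bars) in the 4 libraries, with axes from 0 and a scale of its own in each panel. CTD-2195B23.3 is lower than AXL in each library, CTD-2330K9.2 is higher than MST1R in each, and GAS6-AS1 stays between 0.848 and 1.48 FPKM.

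The ligand of MST1R is encoded by MST1, which was at 5.54 and 0.556 FPKM in the vector pair, against 2.69 and 0.519 in the wtBRCA1 pair. It was lower in both OTX-015 libraries and did not pass (-1.68 ± 0.49 log2, limma adjusted p = 0.0722). Both HGF and the MST1R ligand need cleavage by proteases. ST14, encoding matriptase, which activates pro-HGF, was at 176 and 395 FPKM in the vector pair, against 157 and 251 in the wtBRCA1 pair (0.92 ± 0.25 log2 for OTX-015, limma adjusted p = 0.0618). SPINT2, an inhibitor of such proteases, rose in the wtBRCA1 line, from 811 to 1131 FPKM with solvent, and with the inhibitor from 966 to 1859 (0.71 ± 0.19 log2, limma adjusted p = 0.0498). That call lies at the threshold and was kept in 1 of 10 alternatives. Of the 10 genes of ligand activation, 7 were tested. SPINT2 was the 1 that passed for the line (8.29% of all genes did), and none passed limma for OTX-015 (6.32%). At an unadjusted limma p under 0.05 there were 1 for the line and 3 for OTX-015, against 23.5% and 22.8% of all genes.

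EPHA2 (ENSG00000142627, chromosome 1, 16124337 to 16156087), a receptor of cell-bound ephrin-A ligands that is abundant in basal-like breast cancer cells, was the highest of the 10 genes in both vector libraries. It was at 73.5 and 113 FPKM in the vector pair, against 55.1 and 73.3 in the wtBRCA1 pair. The vector OTX-015 library was the high one and the wtBRCA1 DMSO library the low one. The OTX-015 effect of 0.51 ± 0.29 log2 and the line effect of -0.52 ± 0.29 did not pass (limma adjusted p = 0.333 and 0.321).

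Of 21 other Eph receptors and ephrins, 13 were tested. In the wtBRCA1 line 2 fell (3.41% of all genes did), and none passed limma for OTX-015 (6.32%). At an unadjusted limma p under 0.05 there were 4 for the line and 5 for OTX-015, against 23.5% and 22.8% of all genes. EPHA1, which like EPHA2 binds ephrin-A ligands, fell from 26.5 to 9.10 FPKM with solvent, and with the inhibitor from 13.7 to 5.21 (-1.35 ± 0.35 log2, limma adjusted p = 0.0433). EPHB6, a kinase-dead family member, was at 6.05 and 2.54 FPKM in the vector pair, against 1.18 and 0 in the wtBRCA1 pair (limma adjusted p = 0.0498), so no fold is given. Each of these calls was kept in 1 of 10 alternatives. EPHB4, the ephrin-B2 receptor, was at 32.4 and 18.9 FPKM against 75.6 and 36.5 (1.06 ± 0.32 log2 for the line, limma adjusted p = 0.0720). EPHA2 and EPHB4 thus stood on opposite sides of 0 for the line, and neither passed.

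DDR1 (ENSG00000204580, chromosome 6, 30876421 to 30900156), a receptor that is switched on by collagen rather than by a soluble factor, was the highest of the 10 genes in both wtBRCA1 libraries. It was at 66.3 and 75.3 FPKM in the vector pair, against 206 and 101 in the wtBRCA1 pair. The wtBRCA1 DMSO library stood apart, at 3.11 times the vector value, and under OTX-015 the ratio was 1.34. The line effect was 1.02 ± 0.34 log2 and did not pass (limma adjusted p = 0.0954). RefSeq lists 8 DDR1 starts in the promoter table, which the single value per gene does not separate.

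Among DDR2 and the collagen genes whose products DDR receptors bind, 7 of 12 were tested. In the wtBRCA1 line 3 fell, against 3.41% of all genes, and 4 had an unadjusted limma p under 0.05, against 23.5%. COL6A1, a chain of collagen VI, fell from 73.2 to 9.53 FPKM with solvent, and with the inhibitor from 75.5 to 9.96 (-2.81 ± 0.32 log2, limma adjusted p = 0.00124). COL6A2 fell from 68.3 to 5.72 and from 35.2 to 16.9, and COL5A2, a fibrillar chain, from 61.7 to 0.780 and from 7.24 to 0.538 FPKM (limma adjusted p = 0.0273 and 0.00485). Of 10 alternatives, COL6A1 kept the call in 9, COL5A2 in 7 and COL6A2 in 1. COL4A1 and COL4A2, chains of basement membrane collagen, were at 5.67 to 11.7 and at 7.92 to 32.2 FPKM and did not pass. COL1A1 and COL5A1 were instead higher in both wtBRCA1 libraries and did not pass either. COL1A1 was at 1.86 and 4.01 FPKM against 9.78 and 8.39 (1.41 ± 0.41 log2 for the line, limma adjusted p = 0.0655). COL5A1 was at 7.84 and 8.70 FPKM against 10.8 and 20.3 (0.78 ± 0.37 log2, limma adjusted p = 0.237). None of the 7 passed limma for OTX-015 (6.32% of all genes did), with 2 at an unadjusted p under 0.05 (22.8%). DDR2 was at 0 in 3 libraries and at 0.114 FPKM in the wtBRCA1 OTX-015 library.

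**Figure D3:**
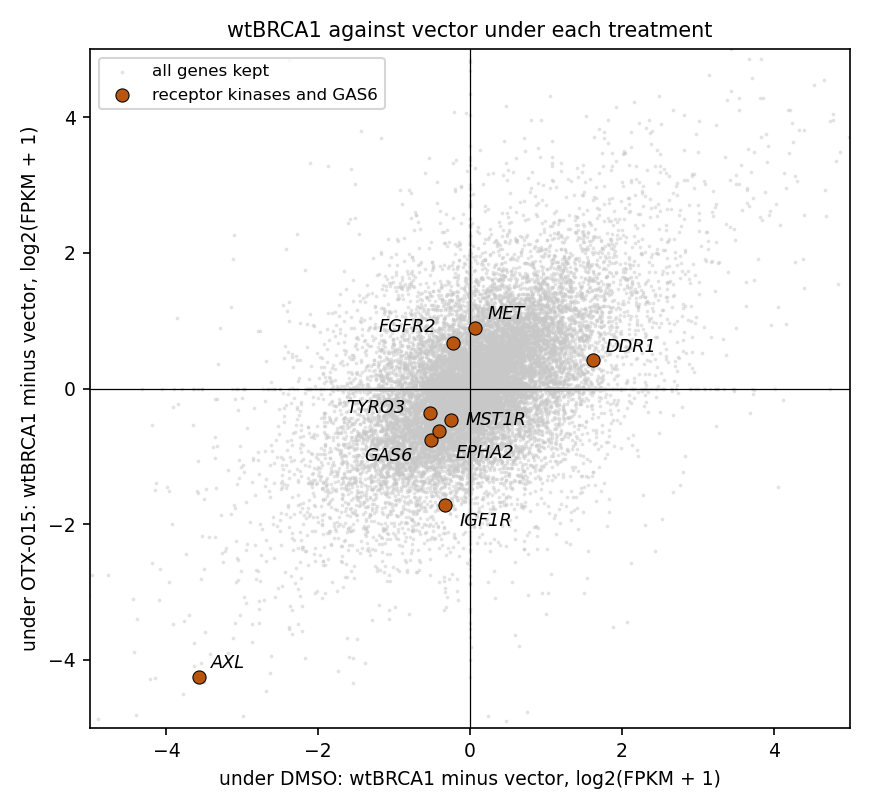
Log2 difference of FPKM + 1 between the wtBRCA1 and vector lines under DMSO (horizontal axis) and under OTX-015 (vertical axis), with 9 of the 10 genes in orange and all 18295 genes in grey, of which 66 lie outside the axes. AXL lies far down on both axes at -3.58 and -4.25, and the other 8 lie between -1.72 and 1.62 on either axis.

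FGFR2 (ENSG00000066468, chromosome 10, 121478334 to 121598458), a receptor of fibroblast growth factors, was at 1.71 and 3.89 FPKM in the vector pair, against 1.33 and 6.80 in the wtBRCA1 pair. It was higher under OTX-015 in both lines, by 2.27 times in vector and 5.13 times in wtBRCA1 cells. The OTX-015 effect of 1.30 ± 0.44 log2 did not pass (limma adjusted p = 0.114), and adjusted p over the 10 alternatives ran from 0.114 to 0.512. No genes of the 9 passed limma for OTX-015, against 6.32% of all genes (3.66% higher and 2.67% lower). At an unadjusted p under 0.05 there were 2, FGFR2 and AXL, against 22.8% of all genes.

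FGFR1 and FGFR3, the related receptors, rose with OTX-015 and stood above FGFR2 in every library. FGFR1 rose from 11.7 to 38.3 FPKM in the vector line, and in the other from 10.7 to 88.2 (2.28 ± 0.39 log2, limma adjusted p = 0.0126), and FGFR3 from 23.2 to 51.3 and from 21.2 to 74.3 (1.44 ± 0.33 log2, limma adjusted p = 0.0348). FGFR4 was at 8.23 and 11.9 against 3.35 and 17.6 FPKM and did not pass. FGFBP1, a carrier that releases FGFs from the matrix, fell from 90.9 to 40.6 and from 28.1 to 7.81 FPKM (-1.43 ± 0.33 log2, limma adjusted p = 0.0359), and also fell in the wtBRCA1 line (-1.95 ± 0.33 log2, limma adjusted p = 0.00800). FGF2 was at 19.6 and 5.11 FPKM in the vector pair, against 17.7 and 8.06 in the wtBRCA1 pair and did not pass for OTX-015 (limma adjusted p = 0.0533). Of these 22 FGF genes, 10 were tested. With OTX-015 2 rose and 1 fell, against 3.66% and 2.67% of all genes, and 1 fell in the wtBRCA1 line, against 3.41%. At an unadjusted limma p under 0.05 there were 5 for OTX-015 and 2 for the line, against 22.8% and 23.5% of all genes. For OTX-015, FGFR1 kept the call in 6 of 10 alternatives, FGFR3 and FGFBP1 in 2 each, and for the line FGFBP1 kept it in 8.

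IGF1R (ENSG00000140443, chromosome 15, 98648539 to 98964530), the receptor of insulin-like growth factors, was low and went opposite ways in the lines under OTX-015. It was at 2.80 and 5.19 FPKM in the vector pair, against 2.03 and 0.881 in the wtBRCA1 pair. The vector OTX-015 library was the high one and the wtBRCA1 OTX-015 library, below 1 FPKM, the low one. On the FPKM + 1 scale the wtBRCA1 line differed by -0.33 log2 with DMSO and by -1.72 log2 with OTX-015. The line effect of -1.02 ± 0.49 log2 did not pass (limma adjusted p = 0.244). IGF1R was the 1 member with opposite responses of at least 0.5 log2 each, which 5.68% of all genes showed, and these pairs have no test. The locus range that the files give for IGF1R also spans RP11-6O2.4, which lies outside IGF1R in GENCODE 29 and was at 20.4 and 116 FPKM in the vector pair, against 19.2 and 91.5 in the wtBRCA1 pair. The antisense gene RP11-654A16.3 (chromosome 15, 98954149 to 99105824, minus strand) does overlap IGF1R and was listed at 0 in both vector libraries, against 0.425 and 4.43 FPKM in the wtBRCA1 pair. It was highest in the library where IGF1R was lowest, and its part in that value was not tested.

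Among the other genes of the insulin and IGF axis, 11 of 14 were tested. In the wtBRCA1 line 2 rose and 3 fell, against 4.88% and 3.41% of all genes. None passed limma for OTX-015, against 6.32%. At an unadjusted limma p under 0.05 there were 5 for the line and 4 for OTX-015, against 23.5% and 22.8% of all genes. IGFBP3, which binds IGFs in the medium, fell from 280 to 96.8 FPKM with solvent, and with the inhibitor from 109 to 59.2 (-1.20 ± 0.29 log2, limma adjusted p = 0.0331). IGFBP2 fell from 29.4 to 10.6 and from 22.5 to 5.99 FPKM (-1.57 ± 0.35 log2, limma adjusted p = 0.0234). IGFBP4 and IGFBP5, other binding proteins, rose, from 13.6 to 32.0 and from 2.43 to 18.2 FPKM, and from 0.213 to 14.1 and from 0.771 to 4.26 (limma adjusted p = 0.0232 and 0.0184). The ligand gene IGF2 was at 3.60 and 5.09 FPKM in the vector pair, against 0.0486 and 0 in the wtBRCA1 pair (limma adjusted p = 0.0205), and IGF1 was listed at 0 in all 4 libraries. Of 10 alternatives, IGFBP2 kept the call in 6, IGFBP4 in 5, IGFBP5 and IGF2 in 4 each and IGFBP3 in 3.

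**Figure D4:**
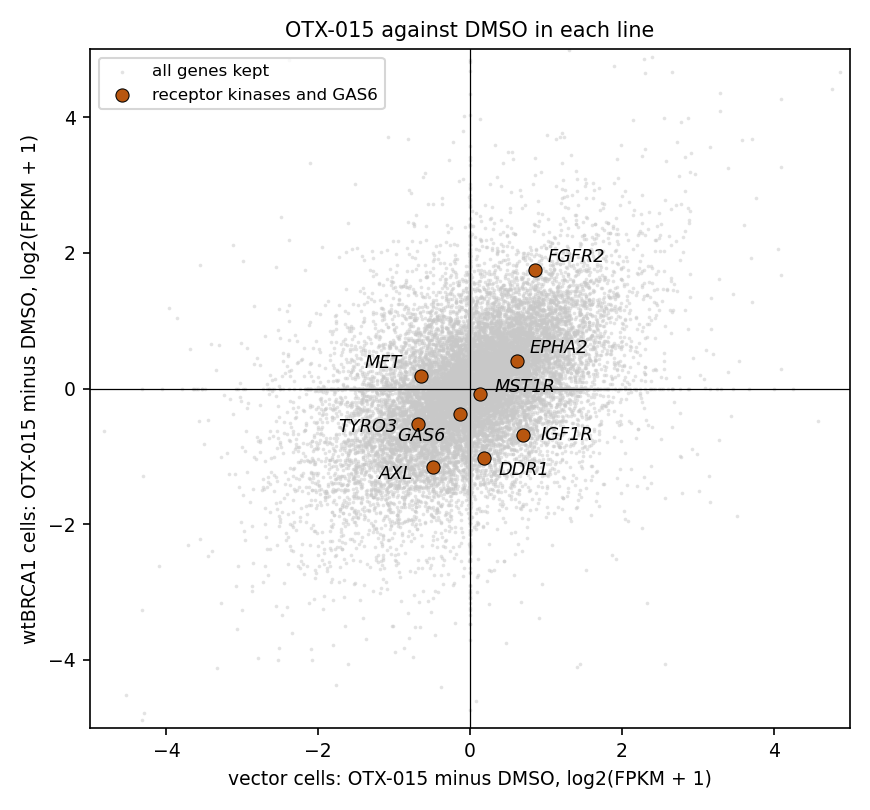
Log2 difference of FPKM + 1 between OTX-015 and DMSO in vector cells (horizontal axis) and in wtBRCA1 cells (vertical axis), with 9 of the 10 genes in orange and all 18295 genes in grey, of which 31 lie outside the axes. FGFR2 is the highest of the 9 in both lines (0.85 and 1.75), AXL, TYRO3 and GAS6 lie below 0 in both, and IGF1R lies at 0.70 and -0.69.

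In pairs of libraries, 0 to 3 of the 9 genes differed by at least 2-fold in FPKM + 1, the scale on which all genes were counted. Under OTX-015 none did in vector cells, against 25.7% of all genes (13% higher and 12.7% lower). In wtBRCA1 cells 3 did, FGFR2 higher and AXL and DDR1 lower, against 26.4% of all genes (13% and 13.4%). In FPKM itself, FGFR2 was also past 2-fold in vector cells (2.27 times higher). IGF1R was so in wtBRCA1 cells, from 2.03 to 0.881 FPKM, the latter below 1 FPKM. Between the lines 2 did under DMSO, DDR1 higher and AXL lower, against 26.5% (14.8% and 11.7%). Under OTX-015 the 2 were AXL and IGF1R, both lower, against 27.7% (15% higher and 12.6% lower). The median log2 differences of the 9 genes were 0.14 in vector and -0.38 in wtBRCA1 cells for OTX-015, and -0.33 under DMSO and -0.47 under OTX-015 for the line, beside medians of 0.00 to 0.04 over all genes. Each library enters 1 comparison of treatments and 1 of lines, so the differences share libraries.

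The remaining lists cover other receptors and the proteins that receptor kinases share. Of 26 other receptor tyrosine kinases 10 were tested, and FLT4, a lymphatic growth factor receptor, was listed at 0 in both vector libraries and at 5.82 and 2.85 FPKM in wtBRCA1 cells (limma adjusted p = 0.0240, kept in 4 of 10 alternatives). FLT4 was the 1 of the 10 that passed for the line (8.29% of all genes did), and none passed limma for OTX-015 (6.32%). At an unadjusted limma p under 0.05 there were 5 for the line and 3 for OTX-015, against 23.5% and 22.8% of all genes. PTK7 and RYK, which take part in Wnt signalling, were at 19.9 to 49.9 and 16.9 to 42.7 FPKM and did not pass. All 20 adaptor and turnover genes were tested, and 2 fell with OTX-015, against 2.67% of all genes. At an unadjusted limma p under 0.05 there were 9 for OTX-015 and 6 for the line, against 22.8% and 23.5% of all genes. CBLC, a ubiquitin ligase of the CBL family that tags active receptors, fell with OTX-015 from 21.0 to 4.88 FPKM in the vector line, and in the other from 31.3 to 10.3 (-1.71 ± 0.35 log2, limma adjusted p = 0.0236). SH3KBP1, which links CBL to the uptake of receptors, fell from 88.6 to 23.6 and from 52.5 to 18.8 FPKM (-1.65 ± 0.32 log2, limma adjusted p = 0.0204). Both kept the call in 6 of 10 alternatives.

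Between the lines, 3 of the 20 adaptor and turnover genes passed, against 8.29% of all genes. PIK3CA, the catalytic subunit of PI3 kinase, rose from 5.03 to 17.7 FPKM with solvent, and with the inhibitor from 1.45 to 10.6 (1.94 ± 0.38 log2, limma adjusted p = 0.0140). HGS, which sorts receptors to the lysosome, rose from 43.3 to 88.2 FPKM with solvent and with the inhibitor from 89.7 to 190.2 (1.04 ± 0.28 log2, limma adjusted p = 0.0498). PTPRJ, a receptor phosphatase that acts on MET, fell from 11.4 to 1.58 and from 7.19 to 2.22 FPKM (-1.81 ± 0.41 log2, limma adjusted p = 0.0272). Of 10 alternatives PIK3CA kept the call in 7, PTPRJ in 4 and HGS in 1. Over all 8 lists, 5 of 83 tested genes passed for OTX-015 (6.02%, against 6.32% of all genes) and 16 for the line (19.3%, against 8.29%). The lists were chosen with earlier results of these data known, so these shares describe the lists and do not test them. In vector cells, the median log2 difference of OTX-015 over the 83 genes was 0.09, and in wtBRCA1 cells it was 0.17.

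**Figure D5:**
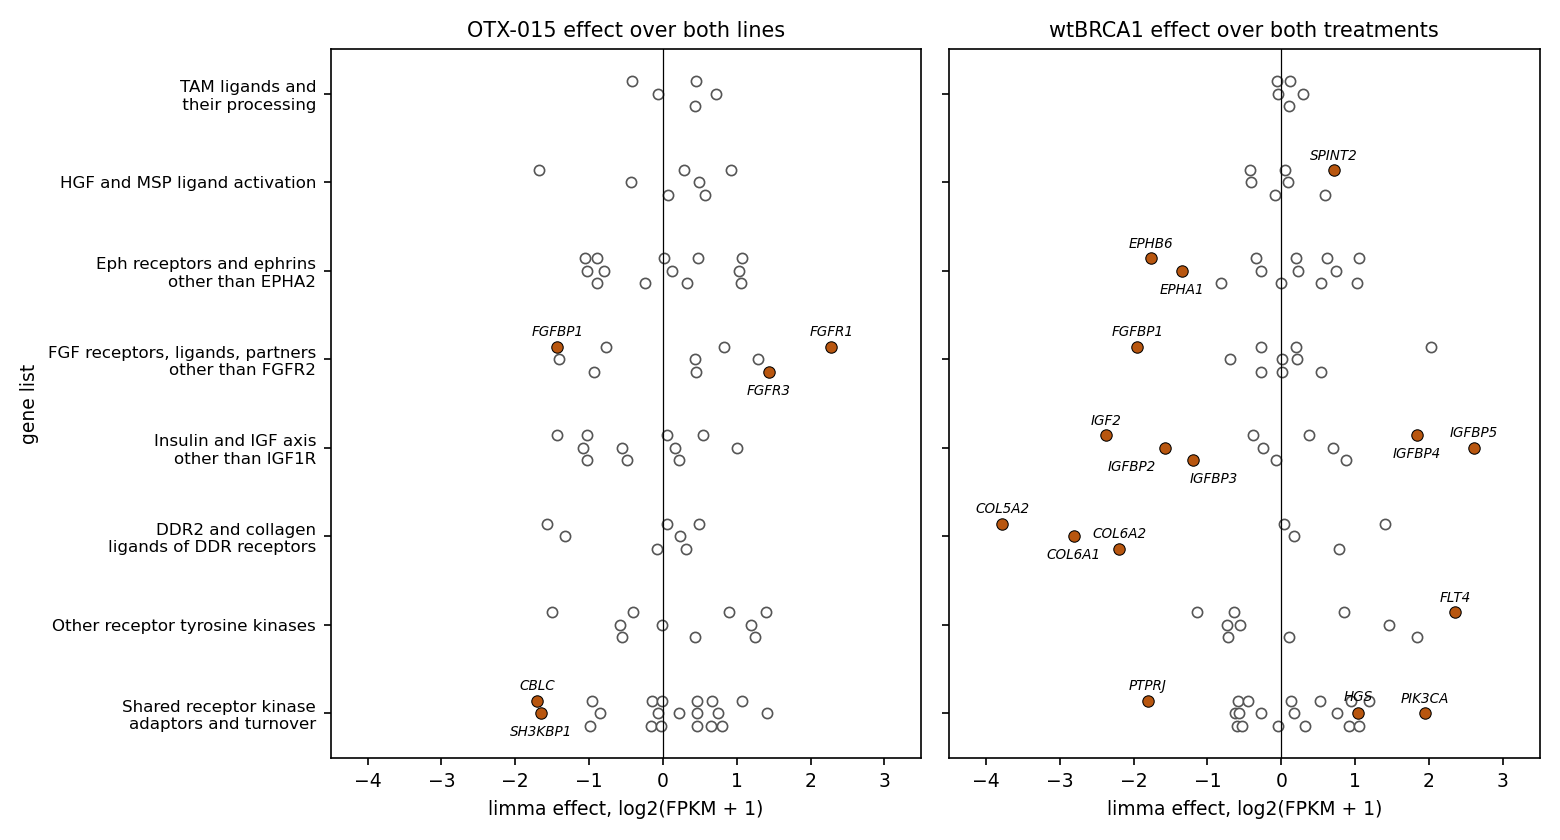
Limma effects on the log2(FPKM + 1) scale of the 83 tested genes in 8 lists of partners and relatives, for OTX-015 (left panel) and for wtBRCA1 against vector (right panel), 1 point per gene. Filled, named points passed an adjusted p of 0.05: 5 genes at left, with FGFR1 highest at 2.28, and 16 at right, from COL5A2 at -3.78 to IGFBP5 at 2.60.

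Over the 4 libraries, AXL and FGFR2 had the widest ranges of the 9 expressed genes, at 4.73 and 1.75 log2. Patterns were compared with 10140 named genes by the largest gap between centred log2 values. Nearest to AXL were CPZ, a secreted carboxypeptidase (gap 0.20 log2), the actin-binding gene ABLIM3 (0.29) and ALDH1A1, which makes retinoic acid (0.43). CPZ was at 28.2 and 20.5 FPKM in the vector pair, against 2.19 and 0.445 in the wtBRCA1 pair. ALDH1A1 was at 14.3 and 18.9 against 0.349 and 0 FPKM. Nearest to FGFR2 were MIR22HG (0.07), CCDC82 (0.07) and the heat shock factor HSF2 (0.08). HSF2 was at 3.80 and 7.97 FPKM in the vector pair, against 2.96 and 11.9 in the wtBRCA1 pair. The likeness is over 4 libraries only and has no p.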

How the data were processed

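Poly(A)-selected RNA from 4 HCC1937 libraries, 1 per group, was sequenced after a directional library preparation, per the labels' protocols. FPKM values per gene are the deposited unit. TopHat2, Cufflinks and the build hg38 are named in the submitters' processing notes, while versions, annotation, strand use and scaling between libraries are not given in the sources used here. The files hold no counts, so depth is unknown and no counting interval can be given. Genes (60487) were joined by identifier (94.2% in GENCODE 29), 7515 short structural RNA genes were left out, 68 shared symbols were summed, and those reaching 1 FPKM in any library were kept (18295). Values were analysed as log2(FPKM + 1) with limma 3.58.1 in R 4.3.3 (line and treatment as terms, mean-variance trend, Benjamini-Hochberg threshold 0.05), which leaves 1 residual degree of freedom per gene. The fit was tested on simulated data with known fold changes: large ones were recovered close to their true size and most of the smallest were missed, while false calls exceeded the nominal rate, so adjusted p-values near the threshold are too small. The genes, lists and tests were chosen with earlier results of these data known. From each list the genes past a test were named, with up to 3 of the highest otherwise, and some further genes (PROS1, GAS6-AS1, AC104651.2, RP11-654A16.3, HGF, MST1, ST14, EPHB4, FGF2, FGFR4, IGF1, DDR2, COL1A1, COL4A1, COL4A2, COL5A1, PTK7 and RYK, and those of the closing observations) were named after their values were seen. No replicate numbers pair the libraries. Promoter windows came from RefSeq on GRCh38.p14. Pandas 2.3.3, numpy 2.4.6 and matplotlib 3.10.9 in Python 3.11.15 were used. Alternatives changed the pseudocount, filter, scaling, symbol rule and fit, or left out a library.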

Additional observations from a re-analysis of the deposited data

Results flagged for a closer look

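Opposite directions in the 2 lines or the 2 treatments, with 1 library per group and no test of the difference, were found for 5 genes. For IGF1R the OTX-015 difference was 0.70 log2 in the vector line and -0.69 in the wtBRCA1 line, a gap of -1.39. For DDR1 it was 0.18 and -1.02, a gap of -1.20. For MET it was -0.65 and 0.19, a gap of 0.84. For MST1R it was 0.14 and -0.09, a gap of -0.22, with an overlapping antisense gene above it in each library. For FGFR2 the wtBRCA1 difference was -0.22 under DMSO and 0.67 under OTX-015, a gap of 0.89.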

How the results depend on the processing

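The fall of AXL in the wtBRCA1 line ran from -4.300 to -2.98 log2 over the 10 alternative fits. Only a changed pseudocount or scaling could move this effect. The other alternatives could change its p but not the effect, which stayed at -3.91. Leaving out a library gave -4.25 or -3.58, which are the line differences under OTX-015 and under DMSO given above. That leaves no residual degree of freedom and so no test or count. The count of 1 gene past the line test became 0 without the treatment term and stayed at 1 in the other 9 fits, and the count of 0 for OTX-015 stayed at 0 in all 10. The OTX-015 effects of MST1R (0.02) and IGF1R (0.01) changed sign: MST1R to -0.044 under median-of-ratios scaling and -0.030 under quantile normalization, IGF1R to -0.13 at pseudocount 0.1 and -0.041 under median-of-ratios scaling. Leaving out 1 library turned the sign of the OTX-015 effects of MST1R (-0.09 to 0.14), IGF1R (-0.69 to 0.70), MET (-0.65 to 0.19) and DDR1 (-1.02 to 0.18), and of the line effect of FGFR2 (-0.22 to 0.67), none of which had passed. With a pseudocount of 5, the number of genes at least 2-fold different became 0 for OTX-015 in wtBRCA1 cells and 1 between the lines under OTX-015, and the number with opposite responses became 0. With a pseudocount of 0.1 the 2-fold count for OTX-015 became 1 in vector cells and 4 in wtBRCA1 cells. The 5 list calls for OTX-015 became 3 with a pseudocount of 0.1 or 5, a filter of 5 or median-of-ratios scaling, and 0 with no filter, quantile normalization, no trend or no line term. The 16 list calls for the line became 10 after median-of-ratios scaling, 6 with a pseudocount of 5, 5 with a filter of 5, 4 after quantile normalization, 2 with no filter, 1 with no trend and 0 without the treatment term. The cause was not tested. No pairing beyond the line and treatment terms was possible because each group has 1 library and the labels give no replicate numbers. Unknown depth limits all values of low genes.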

Other observations

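Several genes of receptor signalling that were singled out after their values were seen had a high vector OTX-015 library, as IGF1R did. Others of the same lists, such as IGF2R and GRB2, were instead highest in the wtBRCA1 OTX-015 library. INSR, the insulin receptor, was at 2.81 and 7.64 FPKM in the vector pair (DMSO, then OTX-015), against 3.996 and 3.68 in the wtBRCA1 pair. GAB1, the docking protein that MET uses, was at 8.35 and 28.3 against 14.4 and 11.1 FPKM. CBL, the ubiquitin ligase of many receptor kinases, was at 3.68 and 7.79 against 4.02 and 2.63 FPKM. IRS1, an adaptor of the insulin and IGF receptors, was instead highest in the wtBRCA1 DMSO library, at 0.538 and 0.0752 FPKM in the vector pair, against 3.20 and 0.340 in the wtBRCA1 pair. None of INSR, GAB1, CBL and IRS1 passed limma for OTX-015 or for the line, and the differences between the lines' responses have no test.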
